A study of Mus musculus with 6 samples.

Results

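The genes described here are 45 mouse precursors of neuropeptides and related peptide hormones other than the main gut hormones, taken by gene symbol from the 54281 genes measured in GLUTag cells. The rule that lists them uses no measured level, but the list was drawn up with earlier results of these data known. GLUTag cells are a mouse GLP-1-secreting line of enteroendocrine tumour origin, so that they stand for a single line and not for all enteroendocrine cells. Polyadenylated RNA of 6 wells, all in a single condition with no added treatment, was made into 3′ mRNA-seq libraries after 48 h of growth in DMEM with 1 g/L glucose and 10% FBS. Plate 1 held 3 wells at passage 23 and plate 2 held 3 wells at passage 27, so that the effects of plate and of passage cannot be told apart. As the wells of a plate share a passage, p-values measure only the spread between these wells. The libraries of plate 1 are replicates 1, 2 and 3, and those of plate 2, whose column numbers restart on that plate and match no single sample label, are called the lowest, middle and highest library of plate 2 after their total count.

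A neuropeptide is made as part of a longer precursor protein, which is cut at pairs of basic residues by prohormone convertases, trimmed by a carboxypeptidase, often amidated, and stored in dense core granules until a stimulus releases it. Enteroendocrine cells and neurons share this machinery. Many of the genes listed here are known best from the hypothalamus or from enteric neurons, where their peptides act on appetite, gut motility, blood vessels or the stress axis through G protein-coupled receptors.

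The total count per library ranged from 21399987 to 36488198, and levels are given as CPM, the count per M of that total. In 3′ libraries a count stands for a transcript end, so levels of different genes were compared without division by length. A count of 0 allows up to 3 counts, which is 0.0822 to 0.14 CPM depending on the library and covers counting error only, and a gene with more than 3 counts in every library is called detected below. In bulk RNA a higher level in each cell and a larger share of cells that express a gene cannot be told apart. The 10 enteroendocrine markers were all detected, with a summed level of 5854 to 7915 CPM. Of 8 neuron markers 5 were detected, with a summed level of 2624 to 3073 CPM, mostly from the neurofilament genes Nefm (1624 ± 64.9 CPM, SD, n = 6) and Nefl (1083 ± 106 CPM, SD, n = 6), whereas Hand2, a regulator of enteric neurons, had no count. Of 8 beta cell markers 3 were detected, Mafa (148 ± 24.0 CPM, SD, n = 6), Nkx6-1 (27.7 ± 4.45 CPM, SD, n = 6) and Pdx1 (21.6 ± 2.44 CPM, SD, n = 6). The summed level of the 8 was 178 to 232 CPM, whereas Ins1, Ins2 and Ucn3 had no count in any library. The middle library of plate 2 stood apart, with 354 of 5031 genes of 30 CPM or more lying over 2-fold below the mean of the rest of its plate, against 0 to 3 genes in each of the other 5 libraries. The highest library of plate 2 had 49 such genes over 2-fold above the mean of the rest of its plate, against 0 to 4 in the others. That mean includes the middle library, so the 49 genes are not independent of its low values. Bc1, a brain cytoplasmic RNA, took 9.74% to 12.0% of the counts on plate 1 and 3.44% to 4.77% on plate 2.

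Of the 45 precursors, 18 (40.0%) were detected in every library, which compares with 58.4% of 21805 protein-coding genes and 28.1% of all genes. The median level of the 45 was 0.254 CPM, against 2.61 CPM for protein-coding genes. Only Nucb2, Cartpt and Tac1 reached 10 CPM in mean, a level reached by 38.3% of protein-coding genes. A further 10 precursors lay between 1 and 10 CPM, and 5 detected precursors lay under 1 CPM. Summed over the list, the precursors had 144.2 ± 25.7 CPM (SD, n = 6), of which 87.2 ± 19.1 CPM (SD, n = 6) remained without Nucb2. The 10 main gut hormone genes together had 4949 ± 573 CPM (SD, n = 6). The remaining 27 precursors comprised 10 with more than 3 counts in some libraries only, 7 that never exceeded 3 counts, and 10 with a count of 0 in all 6 libraries. Among protein-coding genes 21.1% had a count of 0 in all 6 libraries, so the 10 of 45 are near the share of protein-coding genes.

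**Figure D1:**
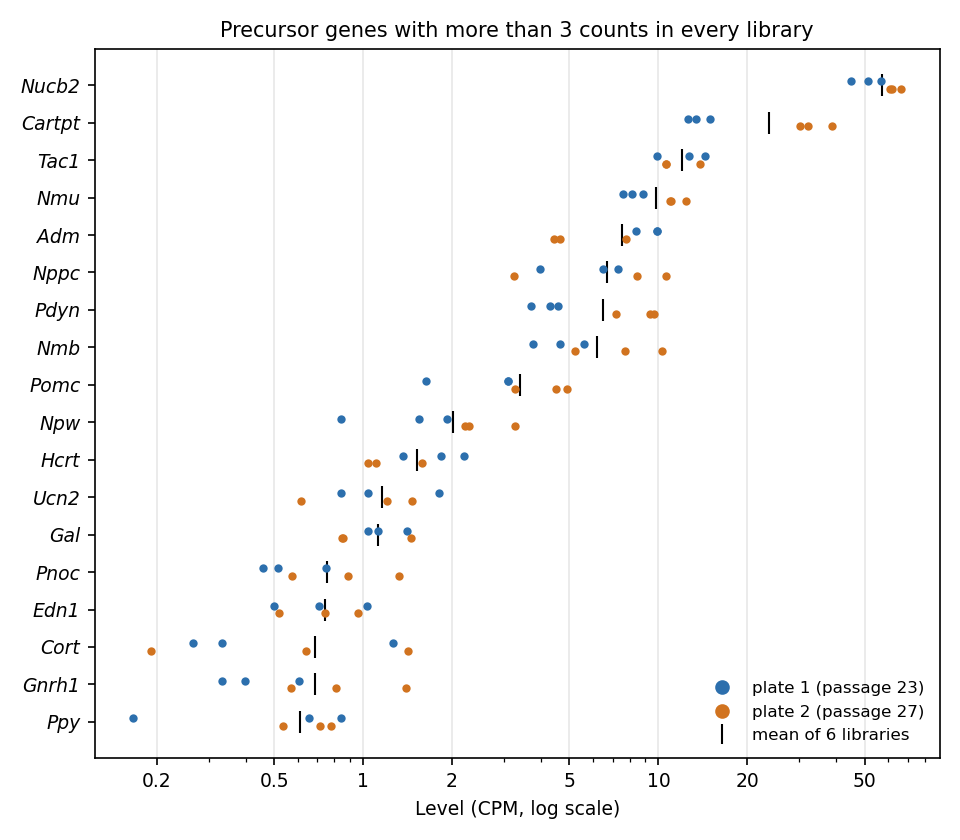
Level in CPM, on a log axis, of the 18 precursor genes with more than 3 counts in every library. Points are single libraries, coloured by plate, and the bar is the mean of 6 libraries. Nucb2, with a mean of 57.0 CPM, lies above all other precursors in every library, and the levels below it overlap between neighbours in the order.

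Nucb2 codes for nucleobindin 2, a calcium-binding protein of wide expression from which the appetite-reducing peptide nesfatin-1 is cut. It was the highest precursor in 6 of 6 libraries (ENSMUSG00000030659, GRCm38 chromosome 7, 116504369 to 116540584, plus strand). Its level was 56.9, 44.8 and 51.2 CPM in replicates 1, 2 and 3 of plate 1 and 62.0, 60.6 and 66.5 CPM in the lowest, middle and highest libraries of plate 2. Replicate 2 of plate 1 was the lowest library, and the 6 values had a mean of 57.0 ± 7.86 CPM (SD, n = 6), a level above that of 86.5% of protein-coding genes.

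Cartpt, which codes for the precursor of the cocaine- and amphetamine-regulated transcript (CART) peptides of hypothalamic and enteric neurons, came next (ENSMUSG00000021647, GRCm38 chromosome 13, 99898489 to 99901091, minus strand). On plate 1 its level was 12.6, 13.4 and 14.9 CPM in replicates 1, 2 and 3. On plate 2 it was 32.2, 38.7 and 30.1 CPM in the libraries with the lowest, middle and highest total. Every plate 2 library lay above every plate 1 library in CPM, as for 35.2% of the genes tested between the plates. The mean of Cartpt over all 6 libraries was 23.6 ± 11.4 CPM (SD, n = 6). Tac1, the precursor of substance P and neurokinin A, followed at 12.0 ± 1.89 CPM (SD, n = 6). Its level was 14.4, 12.7 and 9.91 CPM on plate 1 and 10.6, 13.8 and 10.6 CPM on plate 2, in the same order of libraries, and the plates overlapped. Cartpt was higher than Tac1 in 5 of 6 libraries, with the order turned in replicate 1 of plate 1.

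By mean level over both plates Cartpt and Tac1 stand 2nd and 3rd. Nmu, described next, is 4th by that mean, but lay above the gene next in that order in only 3 of 6 libraries. The sequence around the start of these genes was searched for the cAMP response element (CRE), written TGACGTCA, and for its core TGACG or CGTCA, an element known from the promoters of several neuropeptide genes. The windows are from RefSeq on GRCm38.p6 and run from 250 bases before the start to 50 after it. They are printed 5′ to 3′ on the strand of the gene, with the matched letters in capitals. Cartpt holds 1 full CRE that begins 112 bases before the start (chr13:99900634-99900933, minus strand), Tac1 holds 2 cores 197 and 43 bases before it (chr6:7554811-7555110, plus strand), and Nmu holds 1 core 114 bases before it (chr5:76363728-76364027, minus strand).
Cartpt: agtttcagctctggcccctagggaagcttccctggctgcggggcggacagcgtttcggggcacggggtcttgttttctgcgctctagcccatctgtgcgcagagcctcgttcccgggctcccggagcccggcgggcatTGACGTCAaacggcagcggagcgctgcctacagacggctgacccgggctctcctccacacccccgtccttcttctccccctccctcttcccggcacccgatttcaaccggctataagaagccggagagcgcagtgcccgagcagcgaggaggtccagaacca
Tac1: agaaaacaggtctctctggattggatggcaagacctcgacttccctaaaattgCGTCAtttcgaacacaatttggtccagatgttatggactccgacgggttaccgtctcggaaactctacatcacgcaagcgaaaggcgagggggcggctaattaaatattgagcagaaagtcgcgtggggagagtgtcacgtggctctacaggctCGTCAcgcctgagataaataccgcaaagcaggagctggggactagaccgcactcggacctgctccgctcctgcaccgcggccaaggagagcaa
Nmu: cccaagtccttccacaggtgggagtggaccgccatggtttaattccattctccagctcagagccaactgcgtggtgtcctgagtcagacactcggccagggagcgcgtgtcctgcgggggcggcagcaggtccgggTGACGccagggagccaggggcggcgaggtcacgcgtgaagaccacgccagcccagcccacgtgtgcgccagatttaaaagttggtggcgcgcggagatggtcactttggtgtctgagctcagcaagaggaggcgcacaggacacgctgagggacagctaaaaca

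Windows were found for 35 of the 45 precursors. A full CRE, which reads the same on both strands and contains the core on each, was found in 1.79% of all 32851 windows and in 2 of the 38 windows of these genes, those of Cartpt and Ucn. The core on either strand was found in 20.8% of all windows and in 14 of the 38, from 12 genes. Of the 14 detected precursors with a window 5 held a core, as did 7 of the 21 that were not detected. Nucb2, Adm, Nppc, Pdyn, Nmb and Pomc had a window and no core in it, and Npw had no window. The full CRE of Ucn, the urocortin precursor, begins 44 bases before its start (chr5:31138906-31138965, minus strand, shown here with 60 bases), and it is printed because this gene, in contrast to Cartpt, had a count of 0 in every library.
Ucn: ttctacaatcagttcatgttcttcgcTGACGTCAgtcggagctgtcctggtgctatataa
A match is given as a description of these letters and not as a site in use.

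Among the bombesin-related and neuromedin genes, Nmu and Nmb were detected and Nms and Grp were not. Nmu, whose peptide neuromedin U contracts smooth muscle and reduces feeding, had 8.84, 8.13 and 7.62 CPM on plate 1 and 11.1, 12.4 and 10.9 CPM on plate 2, with a mean of 9.82 ± 1.89 CPM (SD, n = 6). Nmb, the precursor of neuromedin B, had 6.21 ± 2.41 CPM (SD, n = 6), from 3.76 to 10.3 CPM. The value of Nmb is uncertain, since its annotated span shares 188 bases on the same strand with Sec11a, a signal peptidase gene at 143.6 CPM, and reads there could be split between them. Grp, the gastrin-releasing peptide precursor, had at most 2 counts in a library, and Nms, the neuromedin S precursor, had a count of 0 in all 6.

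Of the opioid precursors, Pdyn, which gives the dynorphins, was the highest. It had 4.58, 3.71 and 4.30 CPM in replicates 1, 2 and 3 of plate 1 and 9.36, 9.64 and 7.21 CPM in the lowest, middle and highest libraries of plate 2. In CPM the plates did not overlap, with plate 2 higher, as for 35.2% of the genes tested between the plates. The mean of Pdyn was 6.47 ± 2.64 CPM (SD, n = 6). Pomc, the precursor of ACTH, the melanocortins and β-endorphin, had 3.41 ± 1.17 CPM (SD, n = 6). Pnoc, the nociceptin precursor, had 0.753 ± 0.323 CPM (SD, n = 6), while Penk, the enkephalin precursor, had at most 2 counts.

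Among peptides that act on blood vessels, Adm, the adrenomedullin precursor, had 9.88, 8.40 and 9.91 CPM on plate 1 and 4.42, 7.80 and 4.63 CPM on plate 2. In CPM all plate 1 libraries lay above all plate 2 libraries, as for 4.0% of the genes tested between the plates. The middle plate 2 library was closest to plate 1, and the mean of Adm was 7.50 ± 2.45 CPM (SD, n = 6). Nppc, the precursor of C-type natriuretic peptide, had 6.50, 3.98 and 7.29 CPM on plate 1 and 8.47, 3.23 and 10.6 CPM on plate 2, with a mean of 6.69 ± 2.77 CPM (SD, n = 6). The middle library of plate 2 held its lowest value, 2.95-fold below the mean of the rest of that plate. Edn1, the endothelin-1 precursor, had 0.744 ± 0.218 CPM (SD, n = 6). Edn3 reached 4 counts at most, Nppa, which codes for atrial natriuretic peptide, 3 counts at most, and Nppb and Adm2 had no count. Apln, the apelin precursor, passed 3 counts in some libraries only, from 0.0467 to 0.809 CPM. Pecam1, an endothelial marker, was detected at 3.41 to 99.8 CPM, whereas Cdh5 and Kdr reached 3 and 6 counts at most and Tek had none.

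The remaining detected precursors were low. Npw, the neuropeptide W precursor, had 2.01 ± 0.811 CPM (SD, n = 6), and Hcrt, the orexin precursor, 1.52 ± 0.444 CPM (SD, n = 6). Ucn2, which codes for urocortin 2, a ligand of the CRF type 2 receptor, had 1.16 ± 0.431 CPM (SD, n = 6), and Gal, the galanin precursor, 1.12 ± 0.264 CPM (SD, n = 6). Under 1 CPM in mean but detected were Cort, the cortistatin precursor (0.686 ± 0.533 CPM, SD, n = 6), Gnrh1, the GnRH precursor (0.686 ± 0.387 CPM, SD, n = 6), and Ppy, the precursor of pancreatic polypeptide (0.614 ± 0.243 CPM, SD, n = 6). Ucn2 in the middle library of plate 2 was 2.17-fold below the mean of the rest of that plate. Of the 18 detected precursors, 9 had their highest value in that library and 2 their lowest.

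The precursors with more than 3 counts in only some libraries were Agrp, Apln, Calcb, Calca, Iapp, Oxt, Avp, Edn3, Ghrh and Vip. Agrp, the agouti-related peptide precursor, had the highest mean of them at 0.451 CPM, from 0 to 1.02 CPM, but its annotated span overlaps other genes on both strands, among them Gm5914 on the same strand at 7.12 CPM, so that its value is uncertain. Calca, whose transcripts for calcitonin and for CGRP were summed, and Calcb had at most 15 and 18 counts. Iapp, the amylin precursor of beta cells, had at most 14 counts and Oxt and Avp, the oxytocin and vasopressin precursors, at most 6 and 7. Vip, a principal peptide of enteric neurons, had 5 counts in the highest library of plate 2 and 0 in the other 5. The precursors that never passed 3 counts were Grp, Npy, Uts2b, Tac2, Penk, Nppa and Pmch. Those with a count of 0 in every library were Adcyap1, Adm2, Crh, Ins1, Ins2, Nms, Nppb, Trh, Ucn and Ucn3, and none of these was detectable at this depth.

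In the order of mean level, 17 neighbouring pairs of detected precursors were compared within each library. The higher gene was higher in 6 of 6 libraries for 3 pairs, which were Nucb2 over Cartpt, Nmb over Pomc and Pomc over Npw, and the other 14 neighbours were not separated in every library. The coefficient of variation over the 6 libraries had a median of 34.2% for the 13 precursors of at least 1 CPM, against 21.0% for 13516 genes of at least 1 CPM. These sets were not matched for level, so the difference cannot be read as a trait of the precursors. Of the 13 precursors 10 lay under 10 CPM in mean, whereas 8658 of the 13516 genes reached 10 CPM. Cartpt had the highest coefficient of these 13 precursors with 48.0%, and Nucb2 the lowest with 13.8%.

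To ask which gene of a peptide family these cells express, 13 pairs of related precursors were taken from the list of 45. That list was drawn up with earlier results of these data known. Of the 13 pairs 12 were tested, since Ins1 and Ins2 had no count. Each difference of log2(CPM + 1) within a library entered a two-sided exact permutation test by sign flips, for which 6 libraries allow no p below 0.03125. Pairs at that p had an adjusted p of 0.0417 after Benjamini-Hochberg adjustment over the 12 pairs. In 9 pairs 1 gene was higher in 6 of 6 libraries at this smallest p. Tac1 exceeded Tac2 by 3.66 ± 0.24 (SD, n = 6; exact permutation p = 0.03125), and Nmu exceeded Nms by 3.42 ± 0.25 (SD, n = 6), Adm exceeded Adm2 by 3.03 ± 0.46 (SD, n = 6) and Edn1 exceeded Edn3 by 0.72 ± 0.17 (SD, n = 6) with the same exact p. Coded as the lower gene minus the higher, the difference was -2.80 ± 0.50 for Penk and Pdyn, -2.86 ± 0.56 for Nppb and Nppc, -2.75 ± 0.43 for Grp and Nmb, -1.09 ± 0.29 for Ucn and Ucn2 and -0.63 ± 0.30 for Npy and Ppy (SD, n = 6 each; exact permutation p = 0.03125 for each). The partner was at or under 3 counts in every library in 8 of the 9 pairs, where the p says only that the higher gene was detected in each library and the size depends on the pseudocount. In the other, Edn3 reached 4 counts.

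The remaining 3 pairs did not pass the threshold. Calca and Calcb differed by -0.05 ± 0.28 (SD, n = 6; exact permutation p = 0.5625, adjusted p = 0.614), with Calcb higher in 4 of 6 libraries. Oxt was above Avp in 5 of 6 libraries by 0.07 ± 0.06 (SD, n = 6; exact permutation p = 0.0625, adjusted p = 0.075). Vip and Adcyap1 could not be compared, with counts in a single library (exact permutation p = 1).

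Set against Gcg, Cck and Sct, the precursors were minor transcripts. The mean of Nucb2, 57.0 CPM, lay above those of the other gut hormone genes, and the means of Cartpt and Tac1 lay above those of Nts and Insl5. Gcg, the proglucagon gene that gives GLP-1, had 3416 ± 771 CPM (SD, n = 6), Cck, for cholecystokinin, 1080 ± 277 CPM (SD, n = 6), and Sct, for secretin, 412 ± 61.1 CPM (SD, n = 6). Gast, for gastrin, had 23.8 ± 2.62 CPM (SD, n = 6), close to the mean of Cartpt over both plates. It lay above Cartpt in every library of plate 1 and below it in every library of plate 2. Nts, for neurotensin, and Insl5 had 9.31 ± 2.48 and 7.64 ± 2.07 CPM (SD, n = 6 each), with means between those of Nmu and Pdyn. Pyy (at most 17 counts) and Ghrl, for ghrelin (at most 7), were not detected in every library, Sst, for somatostatin, had 1 count at most and Gip had none.

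The genes that process such precursors were all detected. The prohormone convertase genes Pcsk1 and Pcsk2 had 82.9 ± 27.2 and 52.9 ± 6.66 CPM (SD, n = 6 each), and Scg5, which codes for the chaperone 7B2 of PC2, had 219 ± 43.0 CPM (SD, n = 6). Cpe, the carboxypeptidase that trims basic residues, had 388 ± 134 CPM (SD, n = 6), and Pam, the amidating enzyme, 61.4 ± 10.5 CPM (SD, n = 6). Each of the 5 had a mean above that of every precursor except Nucb2, whose mean lay between those of Pcsk2 and Pam.

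**Figure D2:**
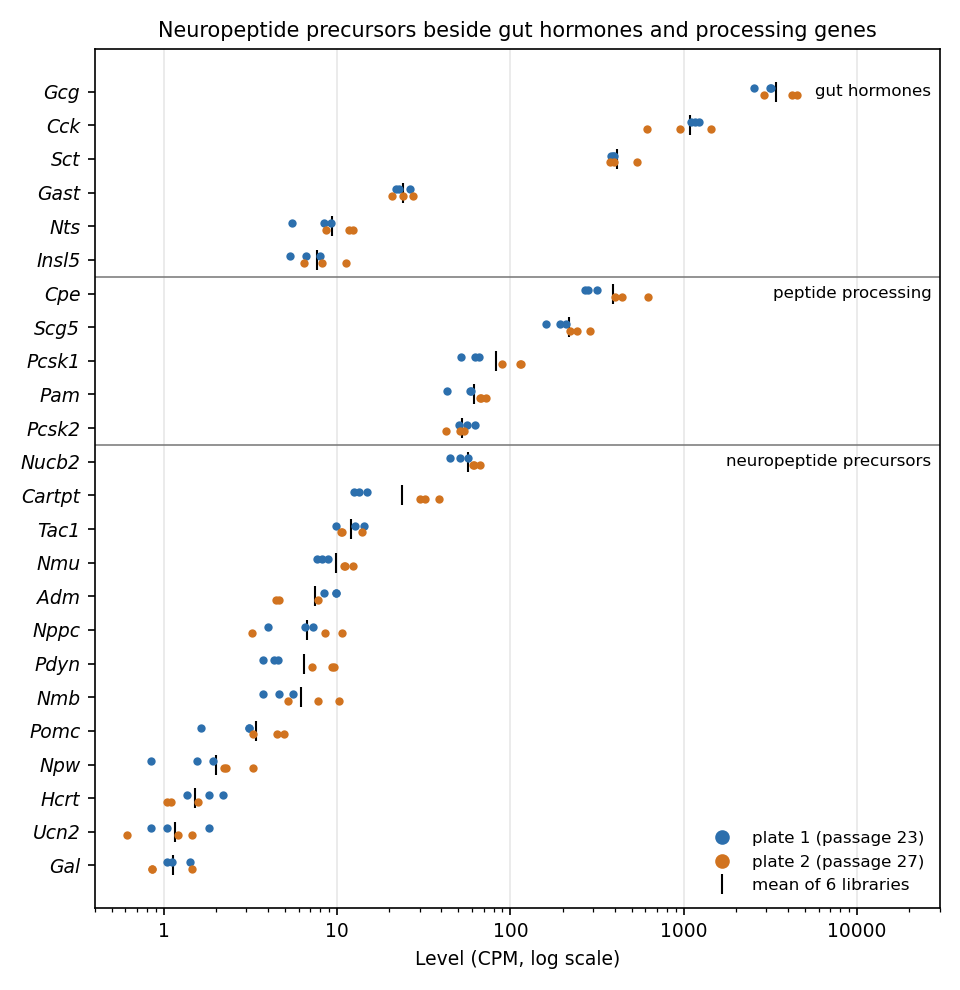
Level in CPM, on a log axis, of 6 gut hormone genes, 5 processing genes and the 13 precursors of at least 1 CPM in mean. Points are libraries coloured by plate and bars are means of 6 libraries. Gcg, with a mean of 3416 CPM, lies above every precursor, and Gast, Nts and Insl5 lie at levels that the precursors also reach.

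A list of 53 genes for receptors of these peptides, or for receptor subunits, was examined in the same libraries. Of these, 17 (32.1%) were detected, against 58.4% of protein-coding genes. Ramp3, a subunit that pairs with the calcitonin receptor family, was the highest with 24.3 ± 6.31 CPM (SD, n = 6), followed by Npy4r, the receptor of pancreatic polypeptide, with 11.4 ± 4.23 CPM (SD, n = 6). The melanocortin receptor genes Mc4r and Mc5r had 3.96 ± 0.557 and 1.04 ± 0.408 CPM (SD, n = 6 each), and the natriuretic peptide receptor genes Npr2 and Npr1 had 3.48 ± 1.85 and 2.94 ± 1.25 CPM (SD, n = 6 each). Vipr1 and Vipr2, for VIP and PACAP, had 2.94 ± 0.777 and 1.67 ± 0.42 CPM (SD, n = 6 each). Oxtr, for oxytocin, had 2.80 ± 1.02 CPM and Avpr1b, for vasopressin, 1.97 ± 0.608 CPM (SD, n = 6 each). Crhr2 had 1.25 ± 0.342 CPM and Ramp2 1.10 ± 0.264 CPM (SD, n = 6 each). Of the other 36, 15 had a count of 0 in every library, as did 21.1% of protein-coding genes.

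Of 15 detected precursors with a receptor on the list, 6 had such a gene detected in every library. These were Nppc with Npr2, Pomc with Mc1r, Mc4r and Mc5r, Ucn2 with Crhr2, Gal with Galr1 and Galr2, Ppy with Npy4r, and Adm with the subunits Ramp2 and Ramp3, although Calcrl, the receptor those subunits need to bind adrenomedullin, had a count of 0 in all 6 libraries. For 5 precursors no listed receptor gene passed 3 counts in any library, and these were Nmb, Pdyn, Npw, Hcrt and Gnrh1. For Tac1, the receptor gene Tacr1 had 1 count at most and Tacr2 had 0.261 ± 0.194 CPM (SD, n = 6). For Nmu, Nmur1 had no count and Nmur2 4 counts at most. In reverse, receptor genes were detected in every library for peptides whose precursors were not, among them Vipr1 and Vipr2 (precursors Vip and Adcyap1), Oxtr (Oxt), Avpr1b (Avp), Npr1 (Nppa) and Npy1r (Npy).

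**Figure D3:**
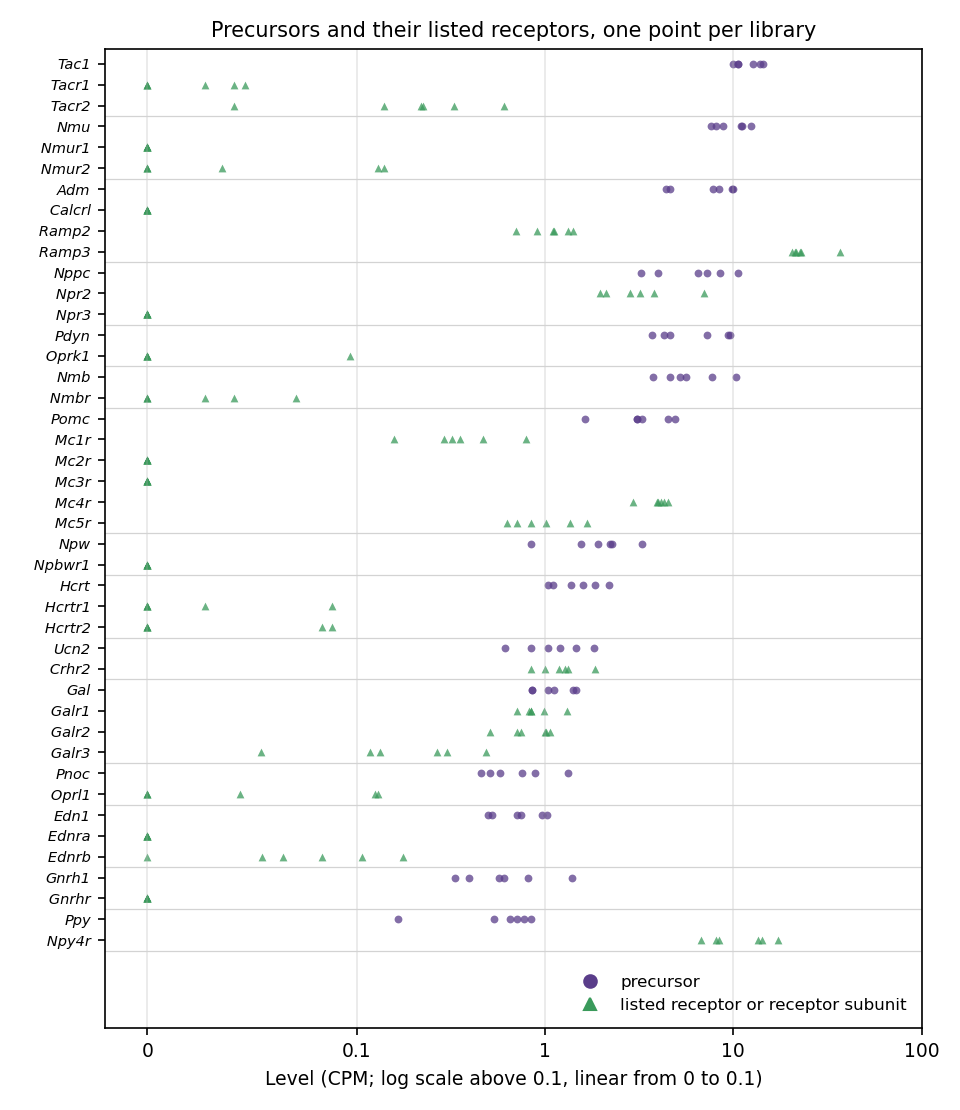
Level in CPM of the 15 detected precursors that have a listed receptor (circles) and of those receptor or receptor subunit genes (triangles), 1 point per library, on an axis that is linear from 0 to 0.1 CPM and logarithmic above. Ramp3 and Npy4r lie above their precursors, Adm and Ppy, in every library, whereas genes such as Calcrl and Nmur1 lie at 0 in all 6.

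The plates were compared because plate and passage are the only labels that differ between the libraries. By edgeR's quasi-likelihood test on 15669 genes, 29 genes, or 0.185% of those tested, differed at an adjusted p under 0.05, 2 higher and 27 lower on plate 2. Of the 45 precursors 20 had enough counts to be tested, and 1, Cartpt, passed. It was higher on plate 2 by a log2 fold change of 1.04 (standard error 0.15, edgeR adjusted p = 0.046), or 2.05-fold after TMM scaling. That call was lost with limma-voom and without any library other than the middle one of plate 2. The edgeR adjusted p was 0.349, 0.279 and 0.136 without replicates 1, 2 and 3 of plate 1, 0.135 and 0.0766 without the plate 2 libraries of lowest and highest total, and 0.000533 without the middle one. It was 0.055 with limma-voom and 2.34e-05 with DESeq2, while the log2 fold change stayed between 0.88 and 1.30 under all 13 alternatives.

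**Figure D4:**
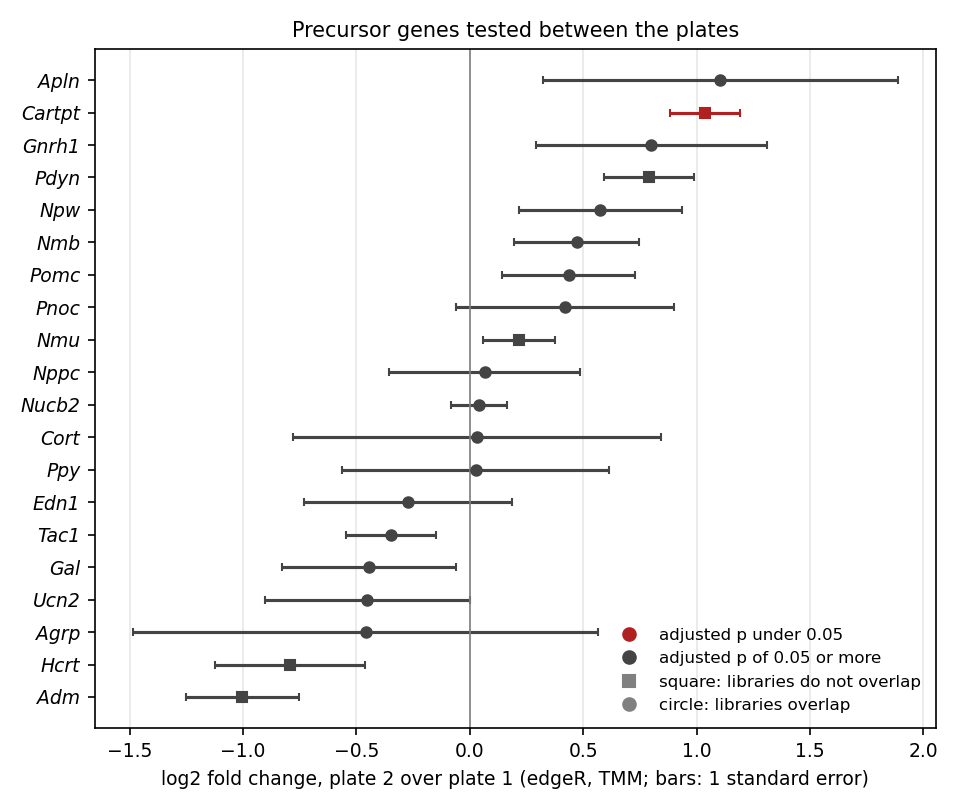
log2 fold change of plate 2 over plate 1 for the 20 precursor genes tested, from edgeR with TMM scaling, with bars of 1 standard error. Cartpt, in red, is the gene with an adjusted p under 0.05, and squares mark genes whose plates do not overlap.

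Of the other 19 precursors tested none passed the threshold by edgeR or limma-voom. Adm and Pdyn passed by DESeq2, which called 3.73% of all genes tested, and by edgeR without the filter on low counts, which called 2.02%. Pdyn passed with the total count alone as scaling, which called 9.46%. With Cartpt, 4 of the 20 had an unadjusted p under 0.05, against 16.1% of all genes tested. After TMM scaling the plates did not overlap for Cartpt, Pdyn and Nmu, all higher on plate 2, against 12.8% of all genes tested that did so in this direction, and for Adm and Hcrt, both higher on plate 1, against 12.0% of all genes tested. In CPM, where 35.2% of all genes tested were higher on plate 2 without overlap and 4.0% were lower, the plates also did not overlap for Nucb2, Pomc and Npw, all higher on plate 2. Those 3 overlapped after TMM scaling, while Hcrt overlapped in CPM. Pdyn had a log2 fold change of 0.79 (standard error 0.20, edgeR adjusted p = 0.124) and Nmu of 0.22 (standard error 0.16, edgeR adjusted p = 0.557). Adm had -1.003 (standard error 0.25, edgeR adjusted p = 0.122) and Hcrt -0.79 (standard error 0.33, edgeR adjusted p = 0.285). Without the middle plate 2 library 3 precursors passed, Cartpt, Adm (log2 fold change -1.36, edgeR adjusted p = 0.000396) and Pdyn (0.67, edgeR adjusted p = 0.047), while the number of all genes past the threshold rose from 29 to 1911 of 15894. Over all 13 alternatives the adjusted p ranged from 0.000396 to 0.414 for Adm and from 0.0277 to 0.409 for Pdyn.

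Among the precursors with low counts that did not pass, Apln had 1.10 (standard error 0.78, edgeR adjusted p = 0.538), Gnrh1 0.80 (standard error 0.51, edgeR adjusted p = 0.490) and Agrp -0.46 (standard error 1.03, edgeR adjusted p = 0.877), with 25, 51 and 24.6 counts at most in a library. Nucb2 had 0.04 (standard error 0.12, edgeR adjusted p = 0.917) and Tac1 -0.35 (standard error 0.20, edgeR adjusted p = 0.441). Of the 20 precursors 13 had a positive and 7 a negative log2 fold change, with a median of 0.05 against 0.03 for all genes tested. With the total count alone as scaling, these medians were 0.32 and 0.30. The summed level of the 45 precursors was 110.7 to 133.6 CPM on plate 1 and 160.4 to 176.4 CPM on plate 2, but 127.3 to 148.7 and 147.7 to 166.8 after TMM scaling, where the plates overlapped.

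**Figure D5:**
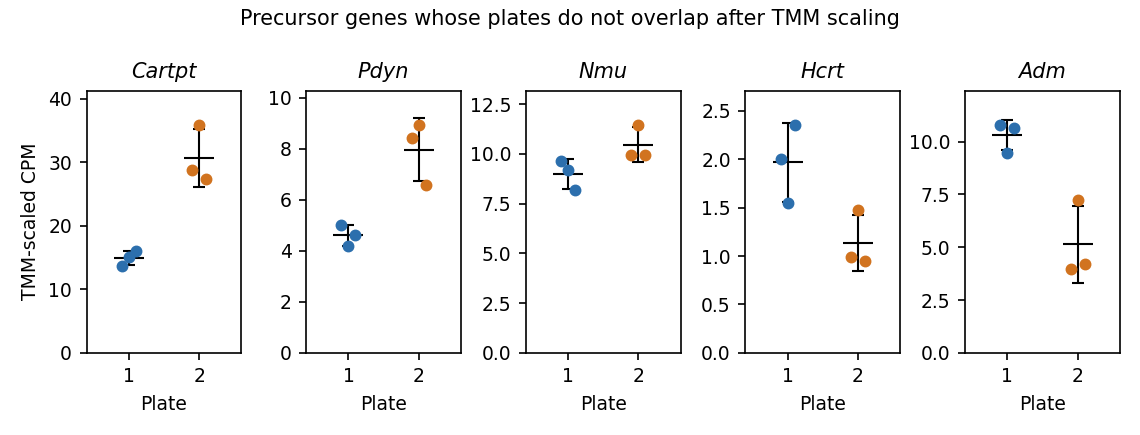
TMM-scaled CPM of the 5 precursors whose plates do not overlap, on linear axes from 0. Points are libraries, the long bar is the mean and the error bar 1 SD of 3 libraries per plate. Cartpt, Pdyn and Nmu are higher on plate 2, and Hcrt and Adm on plate 1, with the middle plate 2 library the highest of its plate for all 5.

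In the same fit, 15 receptor genes, 5 processing genes and 6 gut hormone genes were tested between the plates, and none passed the threshold by edgeR or limma-voom, while Npy4r, 1 of the 15 receptor genes, passed by DESeq2, against 3.73% of all genes tested. At an unadjusted p under 0.05 by edgeR there were 2 receptor genes, 3 processing genes and 0 gut hormone genes, against 16.1% of all genes tested. Npy4r had a log2 fold change of 0.69 (standard error 0.18, edgeR adjusted p = 0.129) and Pcsk1 of 0.56 (standard error 0.15, edgeR adjusted p = 0.135). Cpe had 0.50 (standard error 0.18, edgeR adjusted p = 0.217) and Pcsk2 -0.46 (standard error 0.14, edgeR adjusted p = 0.165). After TMM scaling 3 receptor genes (Npy4r, Npr1 and Mc5r) and 2 processing genes (Pcsk1 and Cpe) were higher on plate 2 without overlap, against 12.8% of all genes tested. Pcsk2 was higher on plate 1 without overlap, against 12.0% of all genes tested, and the gut hormone genes all overlapped. The summed level of the enteroendocrine markers was 5854 to 6754 CPM on plate 1 and 6769 to 7915 CPM on plate 2, but 6733 to 7520 and 6400 to 7344 after TMM scaling, where the plates overlapped. The beta cell and glia markers were likewise higher on plate 2 in CPM, the scaling in which 35.2% of all genes tested were so without overlap, and overlapped after TMM scaling. The summed neuron markers, 2717 to 2963 and 2624 to 3073 CPM, overlapped in CPM but were higher on plate 1 after TMM scaling (2971 to 3408 and 2481 to 2811), as were the goblet cell markers (41.7 to 48.2 and 33.6 to 40.6). Under both scalings the plates did not overlap for the immune cell markers (0.333 to 0.795 and 1.26 to 1.64 CPM), higher on plate 2, and for the endothelial markers, of which Pecam1 alone was detected (39.6 to 99.9 and 3.60 to 32.7 CPM), higher on plate 1. The part of these markers in the difference of Cartpt was not tested.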

How the data were processed

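Poly(A) RNA of 6 wells of GLUTag cells was measured by 3′ mRNA-seq. The authors quantified trimmed reads against GENCODE M23 transcripts of GRCm38 with Salmon, without length correction, and made gene sums with Tximeta; the submitters' processing notes name Trim Galore 0.6.4 and Salmon 1.5.1. These expected counts were deposited without normalization. The kit (QuantSeq FWD) keeps strand, and the strand setting of the counting is not given in the sources used here.

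Each expected count was divided by its library total (CPM). Symbols and positions came from GENCODE M21, in which 54107 of 54281 identifiers were found. The precursors and all lists (receptors, processing genes, gut hormones, markers) were chosen with earlier results of these data known. All precursors are accounted for: those detected in every library are given values, those of at least 10 CPM the value of each library, receptors are named from 1 CPM, and between plates those past the threshold and the 3 largest fold changes in each direction are named. Values of Pdyn, Nmu, Adm and Nppc per library, and other genes outside this rule, were chosen after their values were seen.

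Counts were rounded to whole numbers and compared between plates with edgeR 4.0.16 (robust quasi-likelihood test after TMM scaling and filterByExpr, Benjamini-Hochberg over all genes tested). DESeq2 1.42.0, limma 3.58.1 (voom), other scalings, filters and pseudocounts and omission of each library were the alternatives. The comparison was tested on simulated data with 200 genes changed 4-fold. R 4.3.3, Python 3.11.15, numpy 2.4.6 and pandas 2.3.3 were used. No column was left unmapped.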

Additional observations from a re-analysis of the deposited data

How the results depend on the processing

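The summed level of the precursors lay between 122.4 CPM (plate 1 alone) and 166.1 CPM (plate 2 alone), and between 137.8 and 151.0 CPM with each library left out. At 1 CPM in every library, 10 precursors were detected in place of 18, and with a library left out 18 to 19. The number of genes that differed between the plates was 584 with DESeq2, 1482 with the total count alone, 545 without a filter and 0 to 1911 with a library left out, against 29. It was 0 without replicate 1 of plate 1 and without the plate 2 library of lowest total by edgeR, where 1611 and 2121 genes had an unadjusted p under 0.05. The number of precursors past the threshold was 3 with DESeq2, 0 with limma-voom, 2 with the total count alone, 3 without a filter and 0 to 3 with a library left out. It was 3 without the middle plate 2 library and 0 without any of the other 5. Cartpt kept its direction throughout. Agrp, with few counts, turned from -0.46 to 0.43 with limma-voom and to between -1.03 and 0.77 with a library left out (0.77 without replicate 1 of plate 1). With a library left out, the log2 fold change of Apln lay between 0.63 and 2.89, against 1.10. That of Gnrh1 lay between 0.37 and 1.06, against 0.80, and that of Nmu between 0.12 and 0.27, against 0.22. The share of lower genes among those called was 93.1% with edgeR, 73.1% with DESeq2, 4.79% with the total count alone, 53.2% without a filter and 65.1% without the middle plate 2 library. The cause of these changes was not tested. Pseudocounts of 0.1 and 5 CPM, which cannot change the sign of a difference or its exact permutation p when 6 of 6 libraries have the same sign, moved Tac1 over Tac2 to 6.68 and 1.75. For the 10 precursors with a count of 0 in every library and the 7 that never passed 3 counts, absence and a level below this depth cannot be told apart. The other 10 that were not detected in every library had more than 3 counts in at least 1 library, with Agrp uncertain because other genes overlap it. No paired analysis was possible because the sample labels share no replicate number between plates and the column numbers, which restart on plate 2, are tied to no pairing.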
